A study of Mus musculus with 8 samples.

Results

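Urea cycle and nitrogen disposal enzymes were examined in ribosome profiles of mouse liver. The members were named by gene symbol, 10 in all, and 6 of them had a line in the deposited table of 7500 genes. These 6 were Nags, Otc, Ass1, Asl, Gls2 and Oat. Cps1, Arg1, Glud1 and Glul had no line and their levels were not analysed here.

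Ribosome profiling sequences the short mRNA stretches that a ribosome shields from RNase, so the reads on a coding sequence reflect how many ribosomes sat on it. Wild-type male FVB/N mice received a selenium-deficient diet from weaning for 6 weeks, with 0 ppm selenium added (0 Se) or with 0.1 ppm added as sodium selenite (0.1 Se). Each diet had 2 mice with 2 libraries per mouse, which makes 8 libraries from 4 mice. The values used below are the authors' average of each gene over both diets. Their column names no sample, so whether the 2 libraries of a mouse were merged before averaging is not known from it. The columns that set one diet against the other are the authors' own comparison and were not used, so no difference between the diets, no value of a single mouse, no SD and no test is given.

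The urea cycle turns ammonium, which is toxic, into urea that the kidney excretes, and the liver is the organ that runs the full cycle. Its first steps lie in the mitochondrion. There Nags makes N-acetylglutamate, the activator that Cps1 needs to form carbamoyl phosphate, and Otc joins that product to ornithine to give citrulline. The later steps lie in the cytosol, where Ass1 condenses citrulline with aspartate, Asl splits the product into arginine and fumarate, and Arg1 releases urea and returns ornithine. Gls2, the liver glutaminase, frees ammonium from glutamine, and Glud1 frees it from glutamate. Oat moves the amino group of ornithine onto a keto acid, and Glul, glutamine synthetase, captures the ammonium that escapes the cycle in the hepatocytes around the central vein.

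The first codons of the 4 measured mitochondrial members are shown because this stretch was left out of the footprint counts. Proteins made in the cytosol for the mitochondrial matrix usually begin with a leader that is rich in arginine and lysine and poor in acidic residues. The lines below give the start codon and the next 15 codons of each, 48 bases read 5′ to 3′ from the GENCODE vM1 transcripts of the mm9 mouse genome, with the codons for arginine and lysine in capitals. 
Nags: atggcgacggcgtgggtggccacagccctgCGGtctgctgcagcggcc
Otc: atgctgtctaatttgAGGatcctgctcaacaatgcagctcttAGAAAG
Gls2: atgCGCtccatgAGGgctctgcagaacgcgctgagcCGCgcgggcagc
Oat: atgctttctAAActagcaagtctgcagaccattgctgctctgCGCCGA

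Otc, Gls2 and Oat each had 3 arginine or lysine codons and 0 codons for aspartate or glutamate in this stretch. Nags had 1 basic codon and 0 acidic ones. The stretch was set by what was left out of the counts, so it may end before a leader does. Of the cytosolic members with a line, Ass1 had 1 basic and 1 acidic codon and Asl had 2 and 1. Among the members without a line, the mitochondrial Cps1 had 4 basic and 0 acidic codons and Glud1 3 and 1. The cytosolic Arg1, also without a line, had 2 and 1 and Glul 2 and 0. A stretch with at least 3 basic and 0 acidic codons, a limit chosen after the members' leaders were seen, was present in 8.54% of the 7086 genes of the table whose transcript could be matched. This is a description of the sequences, and no footprint value enters it.

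The level of each member is given in 2 ways. CPM stands for counts per 1000000 counted footprints, and the authors' average log2 CPM was turned back to CPM. CPM per kilobase divides it by the length on which footprints were counted, so that levels of different genes can be compared. In the median gene of the table the level was 15.5 CPM, or 3.95 on the log2 scale, and 11.3 CPM per kilobase. All 6 members with a line lay above both medians, and their own median was 404 CPM and 320 CPM per kilobase. They were measured in bulk liver, where fewer cells of a type and less RNA per cell cannot be told apart. No mRNA level was used, so the amount of an mRNA and the ribosomes on each copy cannot be told apart either.

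Otc (chromosome X, 9829431 to 9898150, plus strand, mm9) had the highest footprint level of the measured members. Its authors' mean was a log2 CPM of 9.81, equal to 901 CPM, over a counted length of 1005 bases in 10 coding exons. It ranked number 125 of 7500 genes by CPM and number 106 per kilobase, with 896 CPM per kilobase. By that measure Otc stood 3.34-fold above Ass1 and 2.41-fold above Asl, the other members of the cycle proper that had a line.

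Asl (chromosome 5, 130487128 to 130501002, minus strand, 16 coding exons) had an authors' mean log2 CPM of 8.95, or 496 CPM over 1335 bases. Ass1 (chromosome 2, 31325727 to 31376192, plus strand, 14 coding exons) had 8.30, or 316 CPM over 1179 bases. Per kilobase the values were 372 for Asl and 268 for Ass1, so the enzyme that splits argininosuccinate carried 1.39-fold more footprints per length than the one that forms it. With Otc and Oat, both were among the 10% of genes with most footprints, at ranks 214 and 335 by CPM and 300 and 406 per kilobase. Whether their difference exceeds the spread between mice cannot be said from an average.

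Otc, Ass1 and Asl together held 1713 CPM, which was 71.6% of the 2393 CPM of all 6 measured members. The 6 members together held 0.239% of 1000000 counts.

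Nags (chromosome 11, 102006827 to 102010791, plus strand, 7 coding exons), which supplies the activator and no intermediate of the cycle, had the lowest level of the measured members. The authors' mean was a log2 CPM of 5.92, or 60.8 CPM over 1524 bases and 39.9 CPM per kilobase. Its rank was 1406 by CPM and 1789 per kilobase. Otc exceeded it 14.8-fold in CPM and 22.5-fold per kilobase, the full range of the measured members. Nags was still above the median gene of the table.

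**Figure D1:**
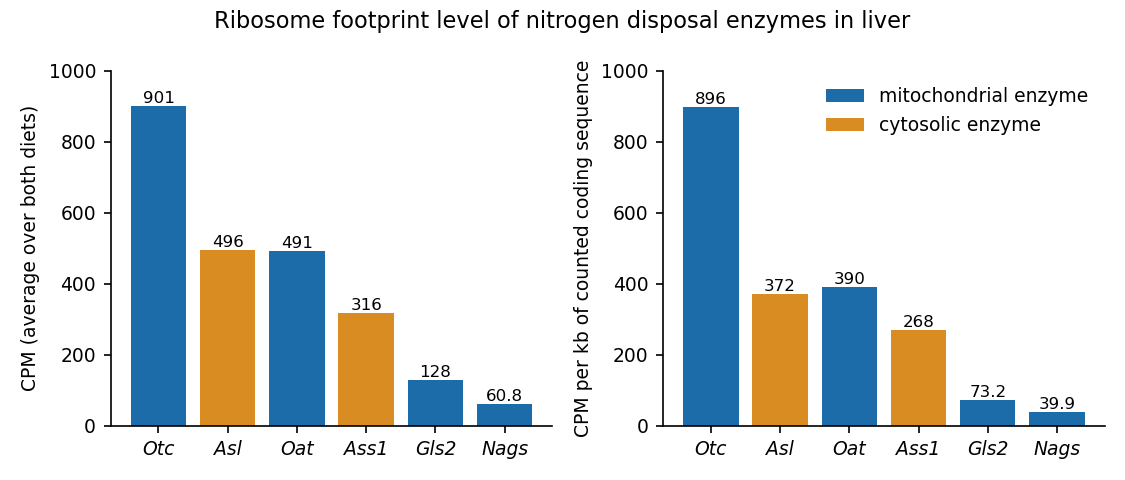
Bars give the authors' average level of each measured member over both diets, as CPM on the left and as CPM per kilobase of counted coding sequence on the right, with no error bars because values of single libraries were not used. Otc is highest in both panels at 901 and 896, Nags lowest at 60.8 and 39.9, and Asl and Oat exchange places between the panels.

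Gls2 and Oat feed nitrogen into the cycle or draw ornithine from it. Oat (chromosome 7, 139749158 to 139768081, minus strand, 9 coding exons) had an authors' mean log2 CPM of 8.94, or 491 CPM over 1260 bases. Per kilobase it reached 390, ranking number 280, which placed it second among the measured members. Oat and Asl differed by 0.01 on the log2 CPM scale and their order turned over per kilobase, where Asl had 0.953 of the level of Oat. No order should be read from this pair.

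Gls2 (chromosome 10, 127631513 to 127647060, plus strand, 18 coding exons) had an authors' mean log2 CPM of 7.0, or 128 CPM over 1749 bases, the longest counted length of the measured members. Its level per kilobase was 73.2, at rank 1188, against a rank of 770 by CPM. Oat stood 5.32-fold and Otc 12.2-fold above Gls2 per kilobase, and Gls2 stood 1.84-fold above Nags. The widest step in the order lay between Ass1 and Gls2, at 3.66-fold per kilobase, with Otc, Oat, Asl and Ass1 above it. The 4 mitochondrial enzymes spanned the whole order, with Otc at the top and Nags at the bottom.

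**Figure D2:**
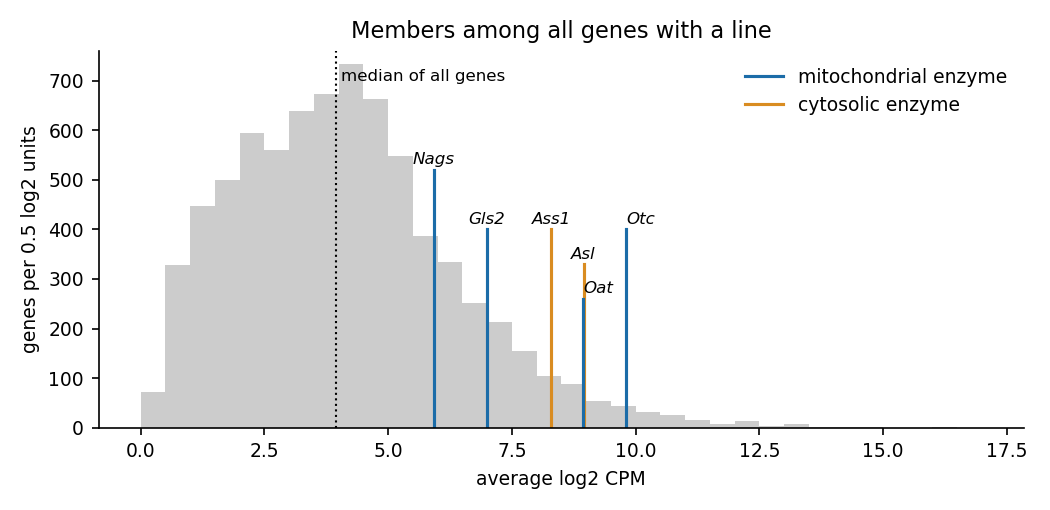
The grey histogram counts the 7500 genes by average log2 CPM in steps of 0.5, the dotted line marks their median of 3.95, and coloured lines mark the 6 measured members, whose heights carry no value. All 6 lie to the right of the median, from Nags at 5.92 to Otc at 9.81.

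The members also differed in base composition. GC content of the counted sequence ran from 45.2% in Otc to 60.5% in Nags, with 50.4% in Oat, 53.7% in Ass1, 55.7% in Gls2 and 56.3% in Asl. The matched genes of the table had a median of 52.3% and quartiles of 47.6% and 56.6%. Otc therefore lay below the lower quartile, at percentile 14.1, and Nags above the upper one, at percentile 93. At the third codon position the spread was wider, from 44.5% in Otc to 71.7% in Nags. The measured member of highest level had the lowest GC content and the measured member of lowest level the highest. Oat, Ass1 and Gls2 kept this opposite order between them, but Asl did not. Asl had more GC than Ass1 and Gls2 and also a higher level. The part of base composition in the levels was not tested.

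Reads that fit more than one gene were dropped by the authors, so shared sequence could lower a level. Each counted sequence was cut into every possible window of 30 bases and looked up in the coding sequences of all other genes of GENCODE vM1. For all 10 members 0% of windows recurred in another gene, over 883 windows in Arg1 to 4414 in Cps1. The search asked for identical windows in coding sequence and covered neither mismatches nor pseudogenes.

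The 4 members without a line comprise Cps1 (chromosome 1, 67169600 to 67277833), which has 1500 codons before its stop, Arg1 (chromosome 10, 24635014 to 24647276), Glud1 (chromosome 14, 35123913 to 35158330) and Glul (chromosome 1, 155747074 to 155756853). The 7500 listed genes summed to 857014 CPM. If CPM over all genes add up to 1000000, the genes without a line, these 4 among them, had 142986 CPM between them. The level of a gene without a line is thus not known to be low, and the totals above hold for the measured members only.

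Other genes of nitrogen and amino acid handling were taken from a list of 54 symbols, of which 36 had a line. Their median was 158 CPM per kilobase, against 320 for the measured members. Of the 36 genes, 4 lay above Otc, 24 between Otc and Nags, and 8 below Nags. Among those above Otc were Tat and Hpd of tyrosine breakdown and the glutamine transporter Slc38a3, with 1827, 1567 and 1296 CPM per kilobase. Mdh1, cytosolic malate dehydrogenase, and the amino acid transporter Slc38a4 followed with 787 and 766. The lowest by log2 CPM were Slc1a4, a neutral amino acid transporter, at 1.58, and Aldh18a1, which starts proline and ornithine synthesis from glutamate, at 1.73. Arg2, the form of arginase that predominates outside the liver, had no line.

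Hepatocytes near the portal vein and near the central vein divide nitrogen work between them, and markers of both were present. Of 13 periportal genes 12 had a line, with a median of 187 CPM per kilobase, led by the gluconeogenic enzyme Pck1 at 2109 and by Cyp2f2 at 1689. Next in order of log2 CPM came Pigr, Apof, Sds and the histidine-degrading Hal, with 536, 874, 243 and 115 CPM per kilobase. Sfxn1 and Cyp17a1 were lowest at 49.3 and 0.993. Of 17 pericentral genes 13 had a line, with a median of 266, led by Cyp2e1 at 9165 and Cyp2c29 at 2979 CPM per kilobase. Cyp1a2, Aldh1a1, Cyp27a1 and Cyp2c37 had 1341, 1108, 350 and 296, and the ammonium transporter Rhbg and Axin2 were lowest at 6.37 and 0.967. Cyp2c29 and Cyp2c37 belong to a family of close relatives, so their values are uncertain. All 6 measured members fell inside the range of both lists. Per kilobase the periportal list ran from rank 49 to rank 7193 of 7500 genes, and the pericentral list from rank 11 to rank 7215. Most genes of the table lay inside both ranges, so the place of the members there says nothing about their zone.

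The liver label was checked against markers. All 8 hepatocyte genes had a line, from Alb at a log2 CPM of 16.48 to Serpina1a, one of several near-identical copies, at 7.93. Their median of 9109 CPM per kilobase was far above the level of any measured member, and Alb exceeded Otc 57.7-fold per kilobase. Of these 8 genes, 6 lay above Otc per kilobase and 2 between Otc and Nags. By median, markers of other cells were lower, although the Kupffer cell gene Clec4f exceeded Serpina1a by log2 CPM and the stellate cell gene Dcn did so per kilobase. The medians were 28.0 CPM per kilobase for 5 Kupffer cell genes of 6, 12.5 for 4 stellate cell genes, 10.01 for 5 endothelial genes and 1.73 for 3 cholangiocyte genes of 4. The highest and lowest genes of each list by log2 CPM were Clec4f at 8.09 and Marco at 2.88, Dcn at 7.71 and Des at 1.78, Stab2 at 7.27 and Lyve1 at 2.12, and Sox9 at 2.06 and Krt7 at 0.72. The 10 genes of highest log2 CPM were Alb, Apoe, Trf, Apoa2, Apoa1, Cyp2e1, Gc, Ttr, Fga and Apob. By log2 CPM all 10 lay above every measured member, and the least of them, Apob, had 13.36. Per kilobase Apob, at 780.5, lay below Otc at 896.

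**Figure D3:**
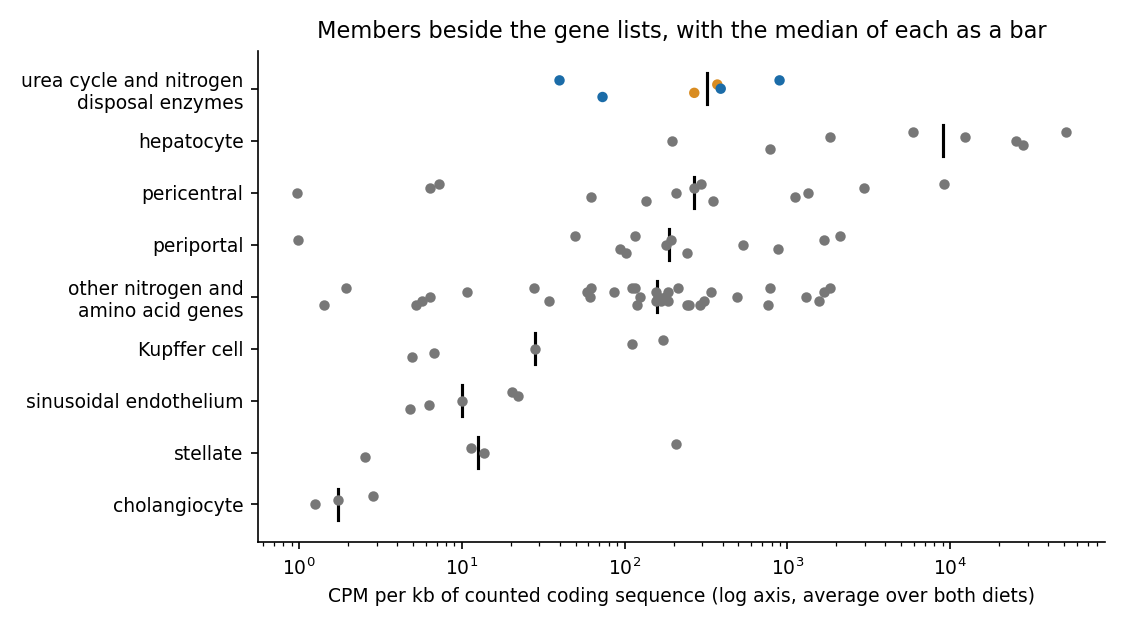
Each point is a gene placed by its average CPM per kilobase of counted coding sequence on a log axis, in rows for the measured members (blue mitochondrial, orange cytosolic) and for each gene list (grey), and the bar in a row is its median. The members run from 39.9 to 896 with a median of 320, below the hepatocyte row at 9109 and above the rows of Kupffer, stellate, endothelial and cholangiocyte genes by median.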

How the data were processed

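Footprint libraries of liver from 4 mice were processed by the authors, who trimmed adapters, removed ribosomal RNA reads with Bowtie and kept reads that fit a single place in the longest RefSeq isoform (mm9) with up to 2 mismatches. The authors ran edgeR on genes above 1 CPM in at least 3 samples, and no version is stated in the labels or methods. The log2 CPM deposited by the authors is a normalized average over both diets, with the small prior count of that tool. The depth per library is therefore unknown and no interval is given. The deposited fold changes, p-values and false discovery rates are the authors' comparison of the diets and were not used. A test of the diets would need counts per library, which were not used here.

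CPM was computed as 2 to the power of the log2 CPM, and divided by the deposited length (Python 3.11.15). That length equalled the coding sequence less 60 bases, which are the start codon, the next 15 codons, the last 3 and the stop codon, in 97.6% of the 7260 genes found in GENCODE vM1. Window sharing was computed on the GENCODE vM1 sequences, with code first checked on simulated sequences of known overlap. The members and lists were chosen with earlier results of these data known. Named from each list were the 6 genes of highest and the 2 of lowest log2 CPM, or the highest and lowest for cell types. Protein sequences were not used here, and values of some list genes and the first codons of some members are not reported here.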

Additional observations from a re-analysis of the deposited data

How the results depend on the processing

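The order of the 6 members per kilobase was the same for each of the 3 lengths tried. Adding back 18 codons gave 850 CPM per kilobase for Otc, 374 for Oat, 357 for Asl, 256 for Ass1, 71.0 for Gls2 and 38.5 for Nags. Dividing by the whole coding sequence with its stop codon, an alternative chosen after seeing the data, gave 846, 372, 356, 255, 70.8 and 38.4, which are 3.32% to 5.63% under the values reported. The combined share of the members was 0.279% when taken over the summed CPM of genes with a line in place of 1000000. Ranks taken only over the 4998 genes whose log2 CPM was 3 or more equalled those over all genes by construction, since all 6 members lie above 3, and so show nothing about stability. Ranked per kilobase in place of CPM, Otc moved from 125 to 106, Asl from 214 to 300, Oat from 218 to 280, Ass1 from 335 to 406, Gls2 from 770 to 1188 and Nags from 1406 to 1789. No paired analysis was possible because each value averages both diets, and mouse numbers are not shared between groups. With no value per mouse, no difference between members or diets could be set against the spread between animals.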
